A study of Macaca mulatta with 30 samples.

Results

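NNMT, nicotinamide N-methyltransferase, and 5 further genes of nicotinamide and NAD metabolism were followed in fetal rhesus macaque lung and hippocampus after maternal betamethasone. The 6 genes (NNMT, NAMPT, NMNAT1, NMNAT2, NAPRT and SIRT1) were found by gene symbol in 2 count tables. Those tables list 30246 gene identifiers in lung and 32386 in hippocampus, 42060 in both together, and each of the 6 genes matched a single identifier in each table. NNMT was selected on its own lung values, which were much higher 4 h and 6 h after the drugs than in saline or at 5 days, and the other 5 were chosen by their place in the same metabolism. All NNMT lung values are therefore given as a description with no test, and only its hippocampus values are tested.

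Cells make most of their NAD from nicotinamide, the vitamin B3 amide that NAD-consuming enzymes release. NAMPT joins nicotinamide to phosphoribose, and the NMNAT enzymes then complete NAD, while NAPRT starts a parallel route from nicotinic acid. NNMT takes nicotinamide out of this cycle by methylating it with S-adenosylmethionine, so that it draws on the NAD cycle and the methionine cycle at once, and SIRT1 is a deacetylase that spends NAD.

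Antenatal betamethasone is given to mature the fetal lung before preterm birth, and the study asked how a lower dose of the slow-release acetate compares with the drug in clinical use. Wild-type pregnant macaques received an intramuscular injection of saline, of the clinical drug (Celestone, betamethasone phosphate with betamethasone acetate, 0.25 mg/kg) or of Beta-Ac (betamethasone acetate alone, 0.125 mg/kg). Lung came from 5 groups of 3 fetuses: saline, Beta-Ac at 6 h, the clinical drug at 4 h, and each drug at 5 days, with an age of gestational day 124 to 130 on the labels. Hippocampus came from 3 groups of 5 fetuses at gestational days 130 to 136, 5 days after treatment. Each replicate is a separate animal, and 9 animals gave both tissues. For these 9 the hippocampus labels all give a day later than 130, so the age labels of the tissues conflict for the same animals. They cannot be read as a difference in age between the tissues.

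The hippocampus groups are named here as the libraries are, CTL, CEL and BAC. Their treatment fields go against those names: the field of BAC gives the combination at 0.25 mg/kg and that of CEL gives the acetate at 0.125 mg/kg. The lung labels of the same animals match the library names, CEL with the clinical drug and BAC with Beta-Ac, and the comparisons below follow the names. Of the 10 treated hippocampus animals, lung labels give the drug of 6, and for the other 4 it rests on the names. In lung, the animal numbers go in part with the groups: all 3 animals at 4 h have numbers beginning with 15, all 6 at 5 days begin with 16, saline holds 2 beginning with 15 and 1 with 16, and the 6 h group 2 with 16 and 1 with 17. The part of these series in the results was not tested.

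Libraries held 14.1 to 45 M counted reads in lung and 18.3 to 29.3 M in hippocampus. Values are CPM, reads per M reads of the library, after TMM scaling within a tissue, and the tables of the tissues were scaled and tested separately. CPM is not corrected for gene length, so levels are compared between groups and not between genes. Lung epithelial markers, led by SFTPC at 2710 to 5100 CPM, summed to 6410 to 9480 CPM in saline lung. In control hippocampus ABCA3 measured 231 to 320 CPM and the other 6 in the table summed to 1.6 to 8.82 CPM, and SFTPC, SFTPB, SFTPA1 and NKX2-1 stayed under 1 CPM in every hippocampus library. The 8 neuron markers, led by STMN2 at 1900 to 3400 CPM, summed to 6000 to 9660 CPM in control hippocampus. In saline lung they summed to 92 to 109 CPM, of which MAP2 made 73.5 to 92.7 CPM and the other 7 summed to 15.4 to 18.5 CPM, and RBFOX3 and SLC17A7 stayed under 1 CPM in every lung library.

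A gene was called changed at a fold of at least 1.5, a p under 0.05 and an adjusted p under 0.1 in edgeR's quasi-likelihood test. Adjustment was by Storey's method in lung and by Benjamini-Hochberg in hippocampus, over all 17644 lung and 17390 hippocampus genes tested. All drug groups of a tissue share its saline animals, so the comparisons with saline are not independent of each other.

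NNMT (ENSMMUG00000007086) was close to silent in saline lung, at 0.0595, 0.137 and 0.301 CPM, or 1, 2 and 6 reads. In the clinical drug group at 4 h it stood at 14.2, 11.4 and 13.2 CPM, and 6 h after Beta-Ac at 3.85, 6.9 and 9.55 CPM. Every early animal lay far above every saline animal, and the lowest 4 h animal was above the highest 6 h animal. At 5 days, in other animals, NNMT measured 0.23, 0.101 and 0.537 CPM after the clinical drug and 0.195, 0.424 and 0.516 CPM after Beta-Ac. These 6 animals overlapped the saline animals and lay below all 6 early ones. Among animals with numbers beginning with 15 alone, NNMT was 0.0595 and 0.137 CPM in saline and 11.4 to 14.2 CPM at 4 h. The 6 h and 5-day groups hold no such animal, and the part of the number series in the NNMT values was not tested.

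Ordered by mean (SD, n = 3 each), NNMT ran from saline (0.166 ± 0.123 CPM) through the clinical drug at 5 days (0.29 ± 0.224), Beta-Ac at 5 days (0.379 ± 0.165) and Beta-Ac at 6 h (6.76 ± 2.85) to the clinical drug at 4 h (12.9 ± 1.43). The lower 3 groups overlapped one another, and the 2 early groups overlapped neither them nor each other. Since dose and time differ between the drugs, no test was made of 4 h against 6 h.

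The log2 fold change of NNMT over saline, on the values that picked the gene, was 6.18 at 4 h (SE 0.66) and 5.25 at 6 h (SE 0.66). Against the same drug at 5 days it was 5.47 (SE 0.53) for the clinical drug and 4.14 (SE 0.5) for Beta-Ac. With 9 reads in saline in all, beside 975 at 4 h and 469 at 6 h, the size of the fold is loosely fixed. Without saline replicate 3, which holds 6 of the 9 reads, the log2 fold changes became 7 and 6.06.

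**Figure D1:**
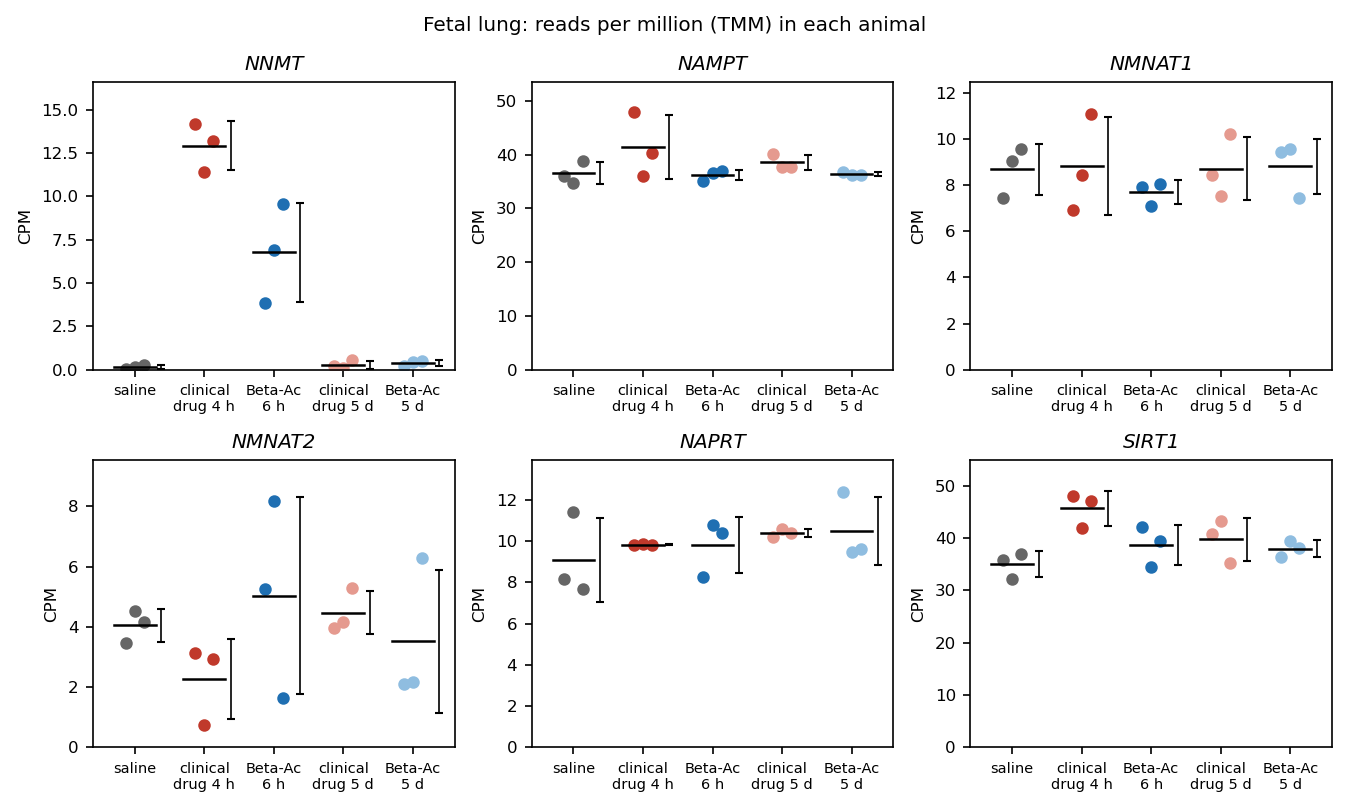
TMM-scaled CPM (vertical axis) of the 6 genes in each of the 15 lung libraries, by group; points are animals, the horizontal line is the mean and the side bar 1 SD (n = 3). NNMT stands between 3.85 and 14.2 CPM in the 6 early animals and at or under 0.537 CPM in the other 9, while every drug group of NAMPT, NMNAT1 and NAPRT overlaps saline.

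At 5 days the log2 fold change of NNMT over saline was 0.71 after the clinical drug (SE 0.73) and 1.11 after Beta-Ac (SE 0.71), with summed reads of 22 and 30 beside 9 in saline. Leaving out libraries moved both: the first ran from -0.12 without replicate 3 of the clinical drug to 1.53 without saline replicate 3, and the second from 0.72 without saline replicate 1 to 1.93 without saline replicate 3. The saline and 5-day values were part of the choice of the gene, so these differences are not tested.

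In the whole tissue these 5-day comparisons held few calls. In edgeR's test with Storey's adjustment no gene was called for the clinical drug (0% of 17644), with 775 genes at an unadjusted p under 0.05 and 16 called by DESeq2. For Beta-Ac 1 gene was called (0.00567%), with 1133 at an unadjusted p under 0.05 and 40 called by DESeq2. The percentages called at the early times were 3.46% higher and 3.94% lower at 4 h, and 0.368% higher and 0.0737% lower at 6 h. Early against 5 days they were 4.47% higher and 5.92% lower for the clinical drug, and 0.227% higher and 0.034% lower for Beta-Ac. Beside these, none of the 5 members other than NNMT was called in any of the 6 lung comparisons by edgeR or by DESeq2. Only SIRT1 at 4 h had an unadjusted p under 0.05 in edgeR.

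NAMPT (ENSMMUG00000003572), the rate-limiting enzyme of salvage from nicotinamide, measured 36, 34.8 and 38.8 CPM in saline lung. It measured 47.9, 36.1 and 40.4 CPM at 4 h and 35.1, 36.6 and 37 CPM at 6 h. Only 2 of the 4 h animals lay above all saline animals, and the groups overlapped. Its log2 fold change was 0.19 at 4 h (SE 0.1, interval -0.03 to 0.4), adjusted p 0.237 in edgeR's quasi-likelihood test with Storey's adjustment, and -0.01 at 6 h (SE 0.1, interval -0.23 to 0.2), adjusted p 0.738. At 5 days the 6 drug-treated animals fell within 36.2 to 40.1 CPM, with log2 fold changes of 0.08 and -0.01.

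NMNAT1 (ENSMMUG00000005863), the nuclear enzyme of the last step to NAD, measured 7.44, 9.04 and 9.59 CPM in saline lung. At 4 h it stood at 6.92, 8.45 and 11.1 CPM and at 6 h at 7.94, 7.11 and 8.05 CPM. Both early groups straddled or overlapped the saline animals, with log2 fold changes of 0.02 (SE 0.2) and -0.17 (SE 0.2). At 5 days the values ran from 7.45 to 10.2 CPM and the log2 fold changes were 0 and 0.02.

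NMNAT2 (ENSMMUG00000001481) codes for the cytosolic form that sustains axons, and was the most variable of the 5 in lung. Saline animals measured 3.45, 4.52 and 4.17 CPM and 4 h animals 3.13, 0.748 and 2.94 CPM. All 3 animals at 4 h lay below all saline animals, 1 of them far below. In this comparison 21.3% of all tested genes did not overlap. At 4 h NMNAT2 had a log2 fold change of -0.79 with a wide interval (SE 0.58, -2.03 to 0.45) and an adjusted p of 0.353 in edgeR's test with Storey's adjustment. It ran from -1.12 without 4 h replicate 1 to -0.43 without 4 h replicate 2. At 6 h the values were 5.26, 8.17 and 1.64 CPM, on both sides of saline, and the log2 fold change was 0.32 (SE 0.56), with -0.23 without 6 h replicate 2 and 0.73 without 6 h replicate 3. At 5 days it was 0.14 after the clinical drug and -0.2 after Beta-Ac, where 1 animal stood at 6.27 CPM and the others at 2.11 and 2.16 CPM. The Beta-Ac value became -0.91 without that animal, replicate 3, and 0.06 and 0.05 without replicates 1 and 2.

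NAPRT (ENSMMUG00000001641), the entry of nicotinic acid, measured 8.15, 11.4 and 7.68 CPM in saline lung. Early values were 9.8, 9.87 and 9.83 CPM at 4 h and 8.25, 10.8 and 10.4 CPM at 6 h. Both early groups lay inside the saline range. Its log2 fold change was 0.12 at each early time (SE 0.18 at 4 h, 0.17 at 6 h), and 0.2 and 0.21 at 5 days after the clinical drug and Beta-Ac.

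SIRT1 (ENSMMUG00000030531), the NAD-dependent deacetylase, measured 35.7, 32.2 and 37 CPM in saline lung and 48.1, 41.8 and 47.1 CPM at 4 h. The 4 h animals all lay above the saline animals, in a comparison where 21.3% of all tested genes did not overlap. The log2 fold change of 0.39 (SE 0.11, interval 0.16 to 0.61) had an adjusted p of 0.034 in edgeR's quasi-likelihood test with Storey's adjustment. It was under the fold of 1.5 and so was not called, here or in any of 21 alternative settings (adjusted p 0.0157 to 0.119). At 6 h SIRT1 measured 42, 34.4 and 39.5 CPM, overlapping saline, with a log2 fold change of 0.14 (SE 0.11, adjusted p 0.48 by the same test). At 5 days the log2 fold changes were 0.18 and 0.12.

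Between 4 h and 5 days of the clinical drug, the 5 genes other than NNMT had log2 fold changes between -0.94 (NMNAT2) and 0.2 (SIRT1). NMNAT2 and NAPRT did not overlap between those times, as 29.1% of all tested genes did not (4.47% were called higher and 5.92% lower), and neither was called. Between 6 h and 5 days of Beta-Ac the 5 genes lay between -0.2 and 0.52, and all overlapped. The highest, NMNAT2, ran from -0.04 to 1.23 over 21 alternatives.

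A wider list held 78 genes of nicotinamide, NAD and methionine metabolism, the 6 genes among them. In lung 67 were in the table and 63 were tested. Of the 62 other than NNMT, 3 were called higher and 2 lower at 4 h and 57 were not called, with a median log2 fold change of 0.02, equal to the 0.02 over all genes tested. These are 4.84% higher and 3.23% lower, near the 3.46% and 3.94% of all tested genes, so that the genes named next are single genes and no result about the list. At 6 h none of the 62 was called by edgeR with Storey's adjustment or by DESeq2, 6 had an unadjusted p under 0.05 in edgeR, and the median was 0.03 beside 0.02. At 5 days none was called by either tool, 0 and 2 genes had an unadjusted p under 0.05 after the clinical drug and Beta-Ac, and the medians were 0 for both beside 0 and 0.01.

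KYAT1 turns kynurenine to kynurenic acid, on a branch off the route from tryptophan to NAD. It measured 25.4, 25.6 and 22.8 CPM at 4 h and 15.5, 14.2 and 13.2 CPM in saline, with no overlap, as for 21.3% of all tested genes. It rose by a log2 fold change of 0.79 (SE 0.12), adjusted p 0.00126 in edgeR's test with Storey's adjustment, and was called in all 21 alternatives. AFMID, which releases kynurenine from its formyl form, measured 5.35, 4.79 and 5.7 CPM beside 8.8, 6.98 and 8.28 CPM. It was called lower, at -0.6 (SE 0.21, adjusted p 0.0839 by the same test), but was called in only 10 of 21 alternatives. Each of 8 animals ended that call when left out: any of the 3 at 4 h, saline replicates 1 and 3, and any of the 3 of the clinical drug at 5 days. The value without them ran between -0.67 and -0.55 (adjusted p 0.104 to 0.201, and 0.0569 to 0.201 over all alternatives). The first enzymes of the route were not called: TDO2 had -0.88 (adjusted p 0.115) and IDO1 -0.13 at 4 h. TDO2 did pass without replicate 3 of the 4 h group (-1.25, adjusted p 0.0495), without replicate 3 of the 6 h group (-0.88, adjusted p 0.0897) and in DESeq2 (-0.89, adjusted p 0.0831), with a range of 0.0495 to 0.295 over all 21 alternatives.

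Among NAD glycohydrolases, CD38, the main NAD-cleaving ectoenzyme, measured 1.02, 0.374 and 1.63 CPM at 4 h and 2.56, 2.67 and 2.31 CPM in saline. All 4 h animals lay below all saline animals, in a comparison where 21.3% of all tested genes did not overlap. CD38 fell by a log2 fold change of -1.3 (SE 0.39), adjusted p 0.0459 in edgeR's test with Storey's adjustment. The call was lost without saline replicate 1 (-1.3, adjusted p 0.104), without saline replicate 2 (-1.25, adjusted p 0.106) and in a fit of the 2 groups alone (-1.31, adjusted p 0.174), and over all 21 alternatives the adjusted p ran from 0.00807 to 0.174. CD38 is a leukocyte gene, and the 6 leukocyte markers summed to 60.6 to 119 CPM at 4 h and 111 to 143 CPM in saline, which overlap. The overlap came from the most abundant, CD14, at 25 to 58.2 CPM beside 35.2 to 37.3 CPM. The other 5 summed to 25.2 to 69.9 CPM at 4 h and 75.7 to 108 CPM in saline, without overlap. Of them PTPRC and CD3E were called lower, CD68 and CSF1R were not called, and MARCO was below the read minimum. CSF1R alone overlapped saline, at 10.7 to 39.4 CPM beside 22.7 to 54 CPM. The part of leukocyte content in the CD38 value was not tested. In whole tissue, fewer cells of a type and less RNA per cell cannot be told apart.

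The methionine cycle supplies the methyl group that NNMT uses. GNMT, another methyltransferase that uses S-adenosylmethionine, measured 8.59, 11.1 and 9.33 CPM at 4 h and 3.33, 6.57 and 3.36 CPM in saline, without overlap, as for 21.3% of all tested genes. Its log2 fold change of 1.13 (SE 0.29) had an adjusted p of 0.0246 in edgeR's test with Storey's adjustment. Without saline replicate 1 it was 0.95 (adjusted p 0.108) and without saline replicate 3 it was 0.97 (adjusted p 0.103), and the call was lost, with a range of 0.00323 to 0.108 over all 21 alternatives. MAT2A, which makes S-adenosylmethionine, had 0.17, and AHCY, which hydrolyses the product of methyl transfer, also had 0.17, and neither was called.

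Other roles near NNMT were not called at either early time. AOX1, which oxidises the methylated product, had log2 fold changes of 0.49 at 4 h and 0.92 at 6 h (SE 0.47 each). Over 21 alternatives these ran from -0.36, without 4 h replicate 1, to 0.94, without saline replicate 3, and from 0.41, without 6 h replicate 3, to 1.37, without saline replicate 3. NADSYN1, the last enzyme of the nicotinic acid route, had 0.25 and 0.22, and PARP1, the main nuclear consumer of NAD, had -0.08 and 0.03. None of 6 sirtuins and none of 15 genes of ADP-ribosylation tested was called at 4 h, beside 3.46% higher and 3.94% lower of all tested genes. Their medians were 0.12 and -0.03. Salvage held 6 tested genes with a median of 0.05 at 4 h and -0.09 at 6 h. The 6 tested genes of NAD phosphorylation, transport and repair had medians of 0.02 and 0. INMT and PNMT, methyltransferases related to NNMT, and NMNAT3 had no symbol in either table and QPRT none in lung, so their values are not analysed here.

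Between 4 h and 5 days of the clinical drug, 3 of the 62 genes were called higher at 4 h, among them KYAT1 (0.69) and GNMT (1.14), and 2 lower, TDO2 (-0.87) and CD38 (-1.51), with a median of 0.01 beside 0 over all genes. The shares, 4.84% and 3.23%, stand beside 4.47% and 5.92% of all tested genes. KYAT1 and CD38 had adjusted p of 0.00229 and 0.0156 and GNMT 0.016 in edgeR's test with Storey's adjustment. The call of TDO2 (adjusted p 0.0838) was lost when some animals were left out. TDO2 gave -0.82 (0.119) without 4 h replicate 1, -0.65 (0.25) without 4 h replicate 2, -0.75 (0.214) without 5-day replicate 2 and -0.73 (0.205) without 5-day replicate 3. It was also lost with Benjamini-Hochberg adjustment and without a read minimum, and over all 21 alternatives the adjusted p ran from 0.0388 to 0.25. Between 6 h and 5 days of Beta-Ac none of the 62 was called by edgeR or DESeq2, with 6 at an unadjusted p under 0.05 in edgeR and a median of 0.01 beside 0.01.

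A list of 10 known glucocorticoid targets, 6 of them tested in lung, was read beside NNMT as a measure of drug exposure. TSC22D3, DUSP1, KLF9 and ERRFI1 had no symbol in the lung table. The list was chosen with earlier results of these data known, so its shares called and medians, here and against 5 days, are a description. At 4 h 5 of the 6 were called higher, beside 3.46% of all tested genes, with a median log2 fold change of 2.93: FKBP5 4.94, ZBTB16 4.43, TFCP2L1 3.56, PER1 2.3 and CRISPLD2 1.83. SGK1 had 0.78 (adjusted p 0.228) and was called only in a fit of the 2 groups alone (0.77, adjusted p 0.0913, range 0.0913 to 0.434). At 6 h FKBP5 (3.21), ZBTB16 (3.72) and PER1 (1.79) were called, beside 0.368% of all tested genes higher, with a median of 1.86, and at 5 days none was called by edgeR or DESeq2 and none had an unadjusted p under 0.05, with medians of 0.17 and 0.16. Adjusted p at 6 h was 0.0166, 0.00224 and 0.0191 for these 3 in edgeR's test with Storey's adjustment. Without saline replicate 1 the calls of FKBP5 (3.21, adjusted p 0.102) and PER1 (1.81, adjusted p 0.102) were lost, PER1 was also lost without 6 h replicate 3 (1.65, adjusted p 0.113), and FKBP5 in a fit of the 2 groups alone (3.19, adjusted p 0.191). The ranges over all 21 alternatives were 1.84e-07 to 0.191 for FKBP5 and 6.65e-08 to 0.113 for PER1. Their log2 fold changes ran from 2.16 to 3.61 and from 1.54 to 2.03. CRISPLD2 (0.97, adjusted p 0.142) passed at 6 h without 4 h replicate 2 (0.95, 0.0768), 6 h replicate 1 (1.16, 0.0785) or 6 h replicate 2 (1.06, 0.0973), and in DESeq2 (0.96, 0.0163), as did TFCP2L1 (1.92, 0.0485), with ranges of 0.0163 to 0.697 and 0.0485 to 0.787.

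Against 5 days of the same drug, 5 of these targets were called higher at 4 h and 3 at 6 h, the same genes, beside 4.47% and 0.227% of all tested genes, with medians of 3 and 2.02. At 6 h the calls of FKBP5 (3.08, adjusted p 0.0278) and PER1 (1.6, adjusted p 0.0503) were lost without any of the Beta-Ac animals at 5 days. FKBP5 gave 3.01 (adjusted p 0.172), 3.12 (0.141) and 3.05 (0.132) without replicates 1, 2 and 3, and PER1 gave 1.63 (0.227), 1.56 (0.182) and 1.58 (0.16). PER1 was also lost without 6 h replicate 3 (1.47, adjusted p 0.228) and FKBP5 in a fit of the 2 groups alone (3.06, adjusted p 0.249). Over all 21 alternatives the adjusted p of edgeR or DESeq2 ran from 9.21e-07 to 0.249 for FKBP5 and 4.25e-06 to 0.228 for PER1. The log2 fold changes ran from 2.03 to 3.47 for FKBP5 and 1.47 to 1.7 for PER1.

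Also at 6 h against 5 days, CRISPLD2 (1.08, adjusted p 0.13) was not called but passed in 4 of 21 alternatives. These were DESeq2 (1.07, 0.00438), no read minimum (1.05, 0.0961), and the fits without 4 h replicate 2 (1.06, 0.0649) or 6 h replicate 1 (1.27, 0.0859), and the range was 0.00438 to 0.574. TFCP2L1 (2.44, adjusted p 0.165) passed in 2, DESeq2 (2.43, 0.00341) and without 6 h replicate 2 (2.69, 0.0995), with a range of 0.00341 to 0.633.

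ZBTB16 is also the nearest named gene on one side of NNMT in the RefSeq gene order of the rhesus assembly T2T-MMU8v2.0, with HTR3A beyond it. C14H11orf71 and then RBM7 follow on the other side. ZBTB16 (ENSMMUG00000007085) measured 12.1, 12.3 and 4.12 CPM in saline lung, 267, 125 and 216 CPM at 4 h and 101, 86.4 and 183 CPM at 6 h. As with NNMT, all 6 early animals lay above all others and the highest 6 h animal was 6 h replicate 3. At 5 days ZBTB16 measured between 10.2 and 18.6 CPM. RBM7 was not called at either early time, with log2 fold changes of -0.04 and -0.38, HTR3A was at or under 0.53 CPM in lung and below the read minimum, and C14H11orf71 was in neither table.

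**Figure D2:**
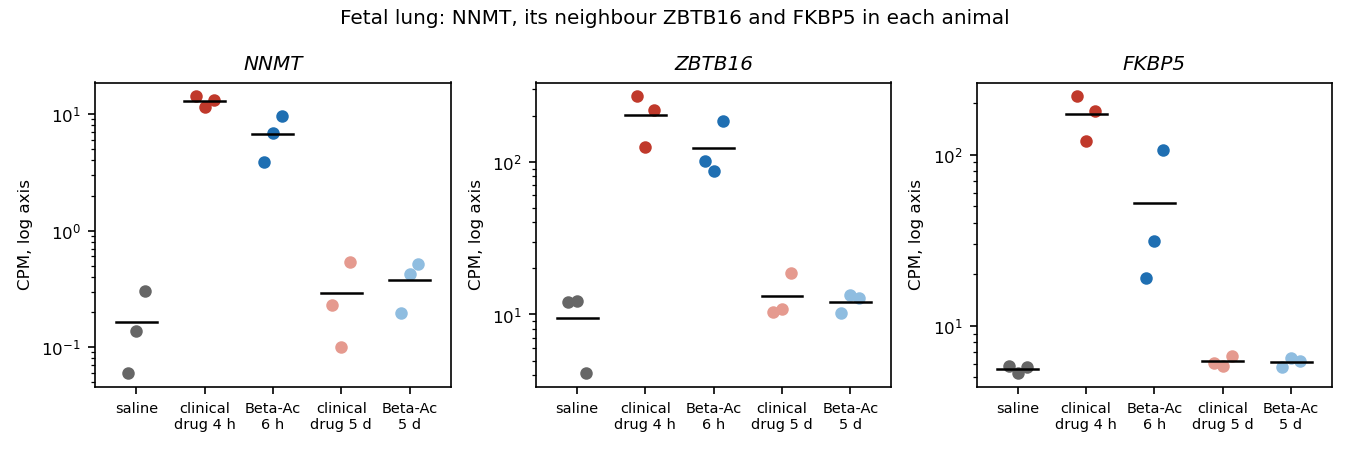
TMM-scaled CPM on a log axis (vertical) of NNMT, its neighbour ZBTB16 and the glucocorticoid target FKBP5 in each lung library, by group (n = 3); points are animals and the black line is the mean. In all 3 genes the 6 early animals stand above the 9 others, with NNMT at 3.85 to 14.2 CPM early.

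Genes whose pattern over the 15 lung libraries was most like that of NNMT were sought by the mean absolute difference of log2 CPM, after subtracting each gene's saline mean. A gene with no change at all would score 2.547. Among 12330 genes with a symbol outside the lists, the closest were MFSD2A (0.952), ADRA2B (1.071), RRAGD (1.228), LGI3 (1.361) and MATN3 (1.445). Of all 17643 other genes tested, ZBTB16 came first (0.8603) and FKBP5 in rank 3 (0.9607). The 5 genes share the early rise in description only, since it chose them.

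They differ in detail. MFSD2A, a transporter of lysolipids, measured 1.55, 1.37 and 2.96 CPM in saline, 94.6, 32.3 and 39.2 CPM at 4 h and 12.4, 10.4 and 25.7 CPM at 6 h. At 5 days of Beta-Ac it still stood at 11.6, 8.57 and 4.76 CPM, where NNMT overlapped saline. ADRA2B, an adrenergic receptor, measured 0, 0.274 and 0.151 CPM in saline and 4.98, 4.34 and 1.88 CPM at 4 h. At 6 h ADRA2B spread over 0.405, 2.19 and 6.61 CPM, with replicate 3 highest as for NNMT. RRAGD, a GTPase of nutrient sensing, was 5.87 to 6.02 CPM in saline, 65.1 to 88 CPM at 4 h and 20.2 to 32.7 CPM at 6 h.

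Levels of NNMT are high in liver, fat and fibroblasts, so markers of these cells were read beside it in lung. Summed CPM of 6 mesenchyme and fibroblast markers (of 8 listed, led by COL3A1) was 11400 to 17200 in saline, 12500 to 14800 at 4 h and 10200 to 15600 at 6 h, overlapping throughout. Of 11 hepatocyte markers 10 were in the table, led by SERPINA1. They summed to 76.8 to 159 CPM in saline, 86.3 to 195 at 4 h and 122 to 372 at 6 h. At 5 days they summed to 104 to 152 CPM after the clinical drug and 128 to 509 CPM after Beta-Ac. Of the 10, AHSG, APOA2, APOB, CPS1, FGA and FGB stayed under 1 CPM in every lung library. ALB ran from 0.238 to 18.1 CPM in saline, 0.501 to 1.32 CPM at 4 h and 1.84 to 3.9 CPM at 6 h, and TF from 29.6 to 46.7 CPM, 26.9 to 50.4 CPM and 58.5 to 104 CPM. At 6 h TF and NNMT both lay above all saline animals, and the part of liver-like content in the NNMT values was not tested.

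The 7 adipocyte markers summed to 42.9, 63.8 and 79.5 CPM in saline, to 268, 127 and 163 CPM at 4 h and to 118, 114 and 134 CPM at 6 h, and so were higher with NNMT. That rise lay in LPL, which was 34.5 to 67.3 CPM in saline, 115 to 258 CPM at 4 h and 103 to 122 CPM at 6 h. The other 6 summed to 8.46 to 12.2 CPM in saline, 8.32 to 12.2 CPM at 4 h and 8.7 to 11.9 CPM at 6 h. Of those 6, ADIPOQ and LEP stayed under 1 CPM throughout. PLIN1 lay at 5.18 to 6.22 CPM in saline, 4.49 to 5.51 CPM at 4 h and 4.2 to 6.4 CPM at 6 h, and CIDEC at 1.43 to 3.76, 1.09 to 3.96 and 1.92 to 5.16 CPM. The part of fat cells in the NNMT values was not tested. Lung epithelial markers (6 of 8 in the table, led by SFTPC) summed to 6410 to 9480 CPM in saline, 10700 to 16800 CPM at 4 h and 7540 to 12800 CPM at 6 h. Their part in the level of NNMT was not tested. Of 57 tested marker genes of all types (89 listed), SFTPC, ABCA3 and LPL were called higher at 4 h and KDR, PTPRC, CD3E, PROX1 and SLC1A3 lower, in edgeR's test with Storey's adjustment. None was called at 6 h or at 5 days, where 7 markers at 6 h, 1 at 5 days of the clinical drug and 10 at 5 days of Beta-Ac had an unadjusted p under 0.05.

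In hippocampus NNMT was present at a low level in every animal 5 days after treatment. Controls measured 1.2, 1.28, 1.16, 1.11 and 1.16 CPM, CEL animals 1.57, 1.03, 2.31, 1.84 and 1.08 CPM and BAC animals 1.37, 1.28, 1.3, 1.12 and 1.42 CPM. Controls were tightly grouped, 3 CEL animals lay above all of them and 2 below all of them, and the 3 groups overlapped. The order of means (SD, n = 5) was CTL 1.18 ± 0.0643, BAC 1.3 ± 0.116 and CEL 1.57 ± 0.535 CPM, with overlap between neighbours.

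The log2 fold change of NNMT in CEL was 0.41 (SE 0.23, interval -0.07 to 0.89), adjusted p 0.235 in edgeR's quasi-likelihood test with Benjamini-Hochberg adjustment, and in BAC 0.13 (SE 0.23, interval -0.35 to 0.62), adjusted p 0.855. Without CEL replicate 3, the animal at 2.31 CPM, the value was 0.22. Over all genes, 2.5% of those tested were called higher in CEL and 5.35% lower, or 435 and 931 genes. With the sequencing run as a term these were 137 and 821, and 509 calls were shared. In BAC no gene was called (0%), with 2133 at an unadjusted p under 0.05 in edgeR and 149 called by DESeq2. Of the 6 genes, 1 was called in CEL, NMNAT2, and none in BAC by either tool, where NMNAT2 and SIRT1 had an unadjusted p under 0.05 in edgeR.

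NMNAT2 was the member called in hippocampus, in CEL only. That call was lost with the sequencing run as a term, as given below. Controls measured 45.2, 50.8, 46.2, 58.7 and 33.2 CPM and CEL animals 27.6, 33.4, 23.4, 28.6 and 28 CPM. All CEL animals lay below 4 of the 5 controls, and only CEL replicate 2 reached above the lowest control, replicate 5. NMNAT2 fell by a log2 fold change of -0.73 in CEL (SE 0.18, interval -1.11 to -0.36), 1.66-fold lower, with an adjusted p of 0.0205 in edgeR's quasi-likelihood test with Benjamini-Hochberg adjustment. BAC animals measured 37.7, 28.8, 28, 23 and 45.1 CPM and overlapped both other groups. BAC replicate 4, at 23 CPM, lay below every CEL animal. In BAC the log2 fold change was -0.52 (SE 0.18, interval -0.9 to -0.15, adjusted p 0.274 by the same test). With the sequencing run as a term it was -0.29 (adjusted p 0.608 by that test). CEL and BAC were not tested against each other.

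The hippocampus libraries came from 4 sequencing runs, and 2 of them hold all 3 groups. Those 2 runs carry all CEL and BAC libraries but only 1 control each, and 3 controls were sequenced in other runs. With the run as a term, NMNAT2 in CEL was -0.5 with an adjusted p of 0.193, and the call was lost. With the run as a term and only the 12 libraries of the shared runs, an alternative chosen after seeing the data, it was -0.48 with an adjusted p of 0.237. Over all 23 alternatives the adjusted p ran from 0.00249 to 0.237, and those 2 were the ones that ended the call. Within run1630 the 3 CEL libraries averaged 28.1 CPM beside a control of 46.2 CPM (log2 ratio -0.72), and within run0164 2 averaged 28.3 CPM beside a control of 33.2 CPM (-0.23). For BAC the log2 ratios within these runs were -0.55 and 0.04. With 1 control in each, run and treatment cannot be well told apart.

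NMNAT2 is a neuronal enzyme, and the 8 neuron markers, led by STMN2, summed to 8050, 9400, 9660, 8880 and 6000 CPM in controls. They summed to 9770, 9940, 8530, 8690 and 8210 CPM in CEL and 8090, 8390, 8250, 8250 and 6910 CPM in BAC. These groups overlapped. The 5 astrocyte markers, led by SLC1A3, summed to 2380 to 3570 CPM in controls, 3350 to 4540 CPM in CEL and 2400 to 4310 CPM in BAC. The part of neuron and astrocyte content in these results was not tested.

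Control replicate 5, the animal with the lowest NMNAT2 among controls, stood apart from the other libraries. Its choroid plexus markers (4 of 6 in the table, led by CLIC6 at 421 CPM) summed to 1080 CPM, against 7.81 to 29.2 CPM in the other 14 libraries. Without it NMNAT2 in CEL was -0.83 (adjusted p 0.0138), still called. The same animal had the highest NAPRT, 5.56 CPM, beside 1.25, 2.84, 2.13 and 1.67 CPM in the other controls, 1.96 to 2.89 CPM in CEL and 1.62 to 2.94 CPM in BAC. The log2 fold change of NAPRT was -0.16 in CEL (SE 0.32, adjusted p 0.77) and -0.2 in BAC (SE 0.32, adjusted p 0.849) in edgeR's test with Benjamini-Hochberg adjustment, and its sign rested on that library, since without it the values were 0.29 and 0.25. With the run as a term the values were -0.54 and -0.59, and neither was called. In the run of that animal the log2 ratio of both groups to it was -1.06, and in run1630 the ratios to the control were 0.07 and 0. Of 64 tested marker genes of all types, AQP4 and P2RY12 were called higher in CEL and 7 lower (COL1A1, COL1A2, COL3A1, DCN, FOLR1, CLIC6 and OTX2), genes of mesenchyme, meninges or choroid plexus, and none was called in BAC, where 7 had an unadjusted p under 0.05. The choroid plexus markers summed to 1080 CPM in control replicate 5 and 7.81 to 12.7 CPM in the other 4 controls. Those 4 lay below the 13.6 to 21.1 CPM of CEL. The part of control replicate 5 in the choroid plexus calls was not tested. The mesenchyme and fibroblast markers summed to 1500 CPM in that control, 412 to 715 CPM in the other 4 and 410 to 568 CPM in CEL.

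SIRT1 measured 41.1, 37, 43, 38.1 and 39.4 CPM in controls and 54.7, 53.9, 58.6, 43.9 and 45.5 CPM in CEL, without overlap, as for 15.1% of all tested genes. BAC animals measured 52.8, 45.9, 53.9, 41.2 and 40.8 CPM, of which 3 lay above all controls. The log2 fold change in CEL was 0.37 (SE 0.11, interval 0.14 to 0.6), adjusted p 0.0368 in edgeR's test with Benjamini-Hochberg adjustment, under the fold of 1.5 and so not called. In BAC it was 0.24 (SE 0.11, interval 0.01 to 0.47, adjusted p 0.382). With the run as a term the values were 0.28 (adjusted p 0.124) and 0.15 (adjusted p 0.549), within ranges of 0.0073 to 0.128 and 0.252 to 0.684 over all alternatives. Within run1630 the log2 ratio of CEL to its control was 0.37 and within run0164 0.18.

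NAMPT measured 54.3, 57.2, 69.4, 59.3 and 45.9 CPM in controls, 76.6, 65.4, 68.8, 54.5 and 56.4 CPM in CEL and 71.9, 60.8, 64.4, 54.6 and 55.2 CPM in BAC, with overlap. Its log2 fold changes were 0.17 (SE 0.12, adjusted p 0.374) in CEL and 0.1 (SE 0.12, adjusted p 0.784) in BAC by edgeR's test with Benjamini-Hochberg adjustment. NMNAT1 lay at 12.3 to 13.8 CPM in controls, 12.3 to 15.5 CPM in CEL and 10.3 to 14 CPM in BAC. Its log2 fold changes were 0.05 and -0.05 (SE 0.11 each).

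**Figure D3:**
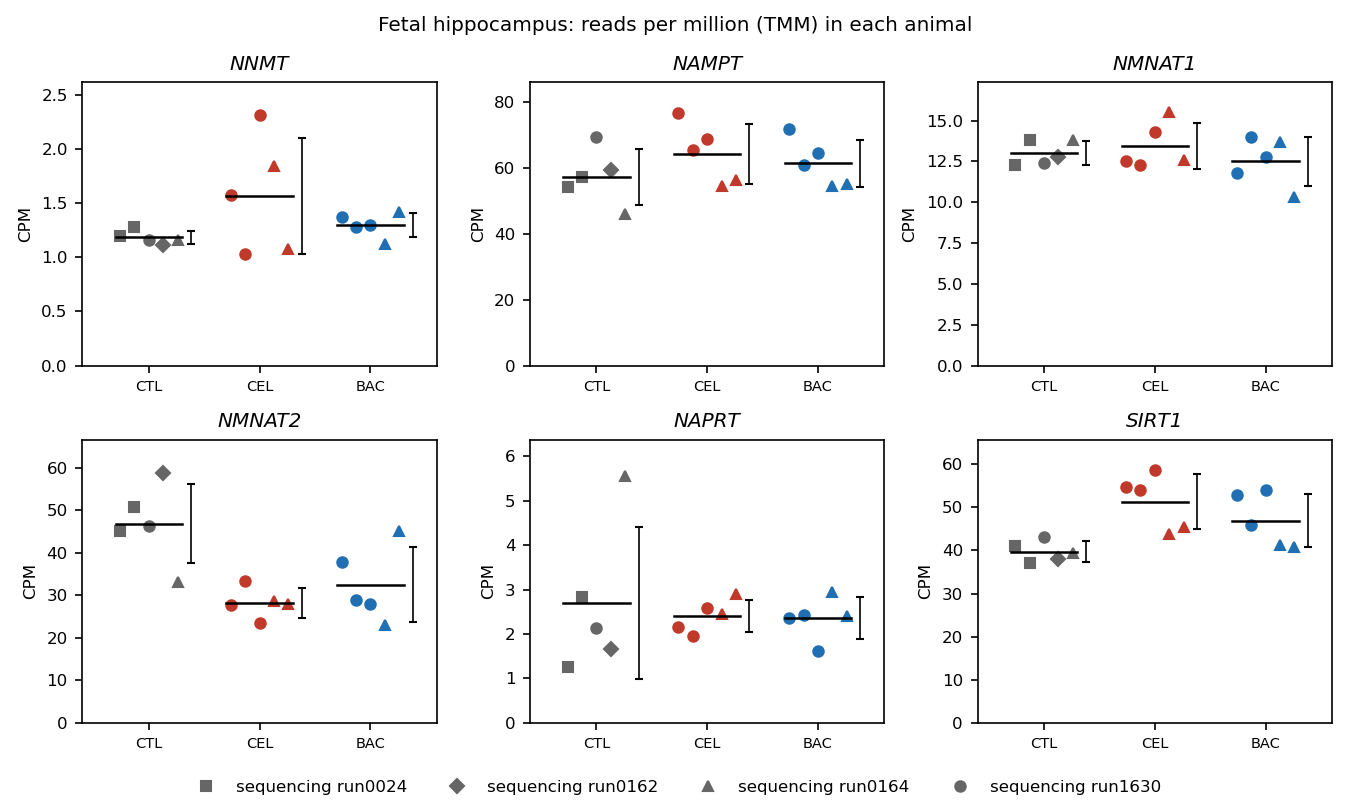
TMM-scaled CPM (vertical axis) of the 6 genes in each of the 15 hippocampus libraries, by group (n = 5); points are animals, their shape gives the sequencing run, the horizontal line is the mean and the side bar 1 SD. NMNAT2 lies at 33.2 to 58.7 CPM in controls and 23.4 to 33.4 CPM in CEL, and SIRT1 at 37 to 43 CPM and 43.9 to 58.6 CPM.

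Of the wider list 69 genes were in the hippocampus table and 63 were tested. Of the 62 other than NNMT, 1 was called higher in CEL and 4 lower, NMNAT2 among them, and 57 were not called. These are 1.61% and 6.45%, near the 2.5% and 5.35% of all tested genes, so that they are single genes and no result about the list. Their median log2 fold change was -0.09 beside -0.02 over all genes tested, with 25 values positive and 37 negative. In BAC none was called by edgeR, 6 had an unadjusted p under 0.05, DESeq2 called 2 lower (TNKS, in edgeR -0.67 with an adjusted p of 0.24, and TNKS2, -0.63 and 0.213), and the median was -0.02 beside -0.01.

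NT5E, the ectoenzyme that dephosphorylates nicotinamide mononucleotide and AMP, measured 31.9, 26.1, 30.4, 26.9 and 21.4 CPM in controls and 37, 39.7, 32.8, 43.4 and 56.3 CPM in CEL, without overlap, as for 15.1% of all tested genes. It rose by a log2 fold change of 0.61 (SE 0.16), adjusted p 0.0249 in edgeR's test with Benjamini-Hochberg adjustment. It fell short of the fold without control replicate 5 (0.54) and without CEL replicate 5 (0.48), and with the run as a term it was 0.69 with an adjusted p of 0.1 (range 0.00345 to 0.124 over 23 alternatives), and not called. Within run0164 the log2 ratio to the control was 1.22 and within run1630 0.26.

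Lower in CEL were 2 genes of ADP-ribosylation, in a comparison where 15.1% of all tested genes did not overlap. PARP2, a DNA damage sensor that spends NAD, measured 44.6, 39.6, 33.4, 37.8 and 36.5 CPM in controls and 22.9, 24.3, 25.4, 25.1 and 25.2 CPM in CEL, without overlap. It fell by a log2 fold change of -0.64 (SE 0.14), adjusted p 0.0159 in edgeR's test with Benjamini-Hochberg adjustment. TNKS, tankyrase, measured 92.2, 77.7, 64.6, 80.6 and 63.6 CPM and 49.4, 51.9, 55, 43.5 and 40.2 CPM, also without overlap, and fell by -0.66 (SE 0.18, adjusted p 0.0311). Without control replicate 1 both were under the fold, at -0.58 each. With the run as a term PARP2 was -0.49 (adjusted p 0.121) and TNKS -0.46 (adjusted p 0.202), and neither was called. The ranges over all alternatives were 0.00118 to 0.163 and 0.00538 to 0.239. Within run1630 and run0164 the log2 ratios were -0.46 and -0.54 for PARP2 and -0.31 and -0.6 for TNKS.

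GNMT, called higher in lung at 4 h, was the other gene called lower in CEL. It measured 5.11, 3.97, 3.97, 4.44 and 2.84 CPM in controls and 1.67, 2.93, 2.67, 2.67 and 2.53 CPM in CEL, where only CEL replicate 2 reached above the lowest control. GNMT had a log2 fold change of -0.7 (SE 0.19), adjusted p 0.029 in edgeR's test with Benjamini-Hochberg adjustment, and with the run as a term -0.45 (adjusted p 0.255, range 0.00865 to 0.302), not called. Within run1630 the log2 ratio was -0.71 and within run0164 -0.13. NADSYN1 was not called (-0.53, adjusted p 0.0919) but passed with the run as a term (-0.75, adjusted p 0.0565), the sole gene of the list to do so. It also passed without control replicate 1 (-0.6, adjusted p 0.0949), without CEL replicate 4 (-0.63, adjusted p 0.0784), and with the run as a term in the shared runs only (-0.73, adjusted p 0.0823), an alternative chosen after seeing the data, with a range of 0.0438 to 0.193. Within run1630 the log2 ratio was -0.85 and within run0164 -0.65.

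PARP1 and MAT2A, close to NNMT by role, and KYAT1 had differences in CEL under the fold of 1.5. PARP1 had -0.43 (SE 0.09, adjusted p 0.0149) and MAT2A 0.34 (SE 0.08, adjusted p 0.0188) and KYAT1 -0.46 (SE 0.11, adjusted p 0.0201) in edgeR's test with Benjamini-Hochberg adjustment. Each was without overlap with controls, as were 15.1% of all tested genes. Over 23 alternatives PARP1 ran from -0.47 to -0.28, with an adjusted p of edgeR or DESeq2 of 0.00087 to 0.131. MAT2A ran from 0.32 to 0.38 (0.000194 to 0.093). Other genes close by role had an adjusted p over 0.1: AHCY had 0.22 (0.174), AOX1 -0.47 (0.459), CD38 0.62 (0.465) and QPRT -0.21 (0.667). The sign of QPRT rested on control replicate 5, at 30.3 CPM beside 9.26 to 11.9 CPM in the other controls, and without it the value was 0.27. Over 23 alternatives CD38 ran from -0.06, with the run as a term, to 0.94, without control replicate 5, and AOX1 from -0.98 to -0.25. IDO1 and TDO2 were below the read minimum.

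The glucocorticoid targets tested in hippocampus, 6 of 10, held no call at 5 days in either group by edgeR or DESeq2, with 2 genes at an unadjusted p under 0.05 in CEL and 0 in BAC and medians of -0.19 in CEL and 0.02 in BAC. ZBTB16, the neighbour of NNMT, had 0 in CEL and -0.06 in BAC (SE 0.23 each). Its other neighbours RBM7 (0.47, adjusted p 0.0322) and HTR3A (-0.56, adjusted p 0.531) were not called in CEL in edgeR's test with Benjamini-Hochberg adjustment.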

How the data were processed

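The authors deposited a count table for each tissue, whose unit is the read count per Ensembl rhesus gene. Per the submitters' processing notes, lung reads were aligned with Bowtie 1.2.1.1 and counted with featureCounts 1.5.1, and hippocampus reads, 75 bp paired-end after poly(A) selection, with Bowtie2 and featureCounts. All 15 lung and 15 hippocampus libraries were used, grouped by the labels (lung) or library names (hippocampus). Median depth per group was 16 to 25.8 M reads in lung and 20.9 to 25.3 M in hippocampus.

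Each tissue was fitted once in R 4.3.3 with edgeR 4.0.16 (TMM, quasi-likelihood F-test). A gene was tested if 3 or more libraries (lung) or 5 or more (hippocampus) held 7 reads or more of it. Fold changes used a prior count of 0.125 and the likeness measure log2 CPM with a prior count of 2. NNMT had at least 7 reads in 6 of 6 early and 3 of 9 other lung libraries. Intervals are 95%. Symbols covered 52.1% of lung and 54.4% of hippocampus identifiers, and 70.6% and 75.2% of tested genes.

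Named genes are the 6 genes, the called genes of the wider list and 10 of its genes near NNMT by role, the glucocorticoid targets, 2 named neighbours on each side and the 5 most similar genes. TNKS2 and the single marker genes other than the most abundant of each type were named after their values were seen. A called gene of the wider list is not reported here. The members and lists (wider pathway, glucocorticoid targets, cell type markers) were chosen with earlier results of these data known. Alternatives were RLE size factors, edgeR's filterByExpr, no read minimum, a fit of the 2 groups alone, DESeq2 1.42.0, the other adjustment, a prior count of 2, each animal left out, the sequencing run as a term, and, chosen after seeing the data, that term with only the runs that hold all groups. The steps were tested on simulated data.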

Additional observations from a re-analysis of the deposited data

Results flagged for a closer look

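Values were scanned within each hippocampus group of 5 for an animal far from the other 4, by Dixon's ratio of its gap from the next animal to the range of the group. Of 111 groups of values, 8 held one; the critical value used is one that marks about 1 in 20 groups by chance. Control replicate 5 held 3: QPRT, the enzyme that passes the tryptophan route into NAD, at 30.3 CPM beside 9.26 to 11.9 CPM, summed choroid plexus markers at 1080 CPM beside 7.81 to 12.7 CPM, and summed mesenchyme and fibroblast markers at 1500 CPM beside 412 to 715 CPM. Control replicate 3 held hepatocyte markers at 299 CPM beside 54.6 to 65.1 CPM and astrocyte markers at 3570 CPM beside 2380 to 2700 CPM. BAC replicate 2 held skeletal muscle markers at 13.4 CPM beside 3.61 to 5.37 CPM, and CEL replicate 2 at 7.31 CPM beside 3.05 to 3.4 CPM. BAC replicate 5 had neuron markers at 6910 CPM beside 8090 to 8390 CPM. None of the 6 genes of nicotinamide metabolism held such an animal. In 72 pairs of effects (lung against hippocampus at 5 days, early against 5 days in lung), no gene moved one way in every animal of one group and the other way in every animal of the other. The lung groups of 3 were not scanned.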

How the results depend on the processing

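For the 6 genes 945 values were recomputed under alternatives: 2, both NMNAT2 in CEL with the run as a term, lost the call, and all others kept their side of the threshold. No called value changed sign; 27 uncalled values did, 6 of them by over 1 SE. The counts of genes called depended more on the setting. With a fit of the 2 groups alone, genes called were 19 at Beta-Ac 6 h (78 as reported), 7 at Beta-Ac 5 days (1) and 9 at Beta-Ac 6 h against 5 days (46), and wider-list genes 2 at 4 h (5). DESeq2 called 247, 40 and 185 in those Beta-Ac comparisons, 16 for the clinical drug at 5 days (0) and 149 in BAC (0), with 2 wider-list genes there (0). Without a read minimum 1 gene was called for the clinical drug at 5 days, 2 for Beta-Ac at 5 days, and 3 wider-list genes at 4 h against 5 days (5). With the other adjustment these were 29 at 6 h against 5 days, 1 in BAC and 3 wider-list genes at 4 h against 5 days. With the run as a term 1 wider-list gene was called in CEL (5). With the run as a term and only the runs that hold all groups, chosen after seeing the data, 596 genes (1366) and 1 wider-list gene were called in CEL. The cause of these differences was not tested.

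Leaving out each animal in turn gave 1005 to 1387 genes at 4 h, 9 (without saline replicate 1) to 211 (without 6 h replicate 2) at 6 h, 0 to 9 for the clinical drug at 5 days, 0 to 2 for Beta-Ac at 5 days, 1256 to 2413 at 4 h against 5 days, 5 to 98 at 6 h against 5 days, 960 to 1751 in CEL and 0 to 184 (without BAC replicate 1) in BAC. Wider-list genes ran from 2 to 6 at 4 h, 4 to 7 at 4 h against 5 days, 4 to 8 in CEL and 0 to 3 in BAC, and stayed at 0 elsewhere. The early NNMT log2 fold changes, large by its choice, were 5.77 to 7 at 4 h and 4.84 to 6.06 at 6 h, and 5.66 and 4.73 with a prior count of 2. With 9 reads in saline, depth limits the size of its fold.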
